A study of Rattus norvegicus with 9 samples.

Results

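The miR-181 family was described from every rat sequence filed under mir-181a, mir-181b, mir-181c or mir-181d, mature and * forms alike (a * sequence comes from the opposite arm of the hairpin). These were 1376 of the 31220 sequences annotated to rat miRNAs and of the 46358 annotated sequences in all. They comprised 774 sequences of mir-181a, 274 of mir-181b, 247 of mir-181c and 81 of mir-181d, filed under 20 of the 577 rat entries. The study asked how small RNAs vary across the wall of the heart. Epicardium, midmyocardium and endocardium of the left ventricular free wall were each sequenced from the same 3 hearts (numbered 6, 7 and 8) of male Sprague-Dawley rats, 8 months old, with no treatment or genetic change in any group. Each of the 9 libraries was made from chopped whole tissue of 1 layer of 1 heart, so all cell types of the wall contribute, and fewer cells of a type cannot be told apart from less RNA per cell. Levels are given in RPMM, the number of reads per 1000000 annotated reads of the library.

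A miRNA guides the silencing machinery to messenger RNAs that pair with its seed, nts 2 to 8 of its 5′ end, so losing a nt from the 5′ end moves the seed while a change at the 3′ end leaves it alone. The miR-181 family is well known from developing lymphocytes, where miR-181a tunes the strength of T cell receptor signalling. In heart muscle, miR-181c is known for acting in mitochondria on the transcript of a cytochrome oxidase subunit.

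The mature sequences are shown because all comparisons of the family rest on their few differences. They are written 5′ to 3′ with the seed in capitals.

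mir-181a: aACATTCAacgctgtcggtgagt
mir-181b: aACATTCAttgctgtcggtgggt
mir-181c: aACATTCAacctgtcggtgagt
mir-181d: aACATTCAttgttgtcggtgggt

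The seed ACATTCA was held by these 4 and by no other of the 336 exact mature or * rat sequences read. Counted from 1 at the 5′ end, mir-181b differs from mir-181a by A9T, C10T and A21G, and mir-181d differs from mir-181b by C12T alone. The sequence of mir-181c is that of mir-181a without its G at position 11. Most reads could therefore be told apart, and only 130 reads filed under mir-181b (1.40%), 9 under mir-181a and 0 under mir-181c and mir-181d matched another member equally well or better. A read filed under more than 1 member was counted in the first one named. Joint entries of mir-181b and mir-181d, with 104, 75 and 17 reads, were thus counted in mir-181b. Some of their reads have the base of mir-181d at position 12, so mir-181d is undercounted by these.

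Matched to RefSeq (build GRCr8), the family lies in 3 pairs of hairpins, all on the plus strand. The mature mir-181a sequence is at chr13:52037081-52037103 (Mir181a-1) and at chr3:43025601-43025623 (Mir181a2). Mature mir-181b follows Mir181a-1 at chr13:52037263-52037285 (Mir181b1), with 159 bases between the mature sequences, and the hairpin of Mir181b2 is at chr3:43026666-43026753. Mature mir-181c is at chr19:40888314-40888335 and mature mir-181d at chr19:40888484-40888506, with 148 bases between them. The pair on chromosome 3 lies within the span of the protein-coding gene Nr6a1 and of a long non-coding RNA, the pair on chromosome 13 within that of another long non-coding RNA, and no RefSeq gene spans the pair on chromosome 19. Since both mir-181a hairpins give the same mature sequence, as do both mir-181b hairpins, their mature reads are filed under joint entries (mir-181a-2//mir-181a-1 and mir-181b-1//mir-181b-2).

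The libraries held 283991 to 1428025 annotated reads (median 770583), the fewest in midmyocardium of heart 6 and the most in endocardium of heart 7. The latter also had the lowest share of reads annotated to rat, 73.8%, against 80.8% to 86.1% in the other 8. A floor of 3 reads corresponded to 2.10 to 10.6 RPMM. Of the 21 marker miRNAs of cell types listed for the wall, all but mir-486 and mir-155 were read under rat entries. These 2 were filed under other species only, mir-486 at 92952 to 228287 RPMM and mir-155 at 7.51 to 31.7, and are not in the sums that follow. The highest mir-486 value was that of the endocardium of heart 7, where mir-451 and mir-144 summed to 602 RPMM. The 5 heart muscle markers, which include mir-1 and mir-133a, summed to 54282 to 107377 RPMM in epicardium, 105877 to 142652 in midmyocardium and 61784 to 103760 in endocardium. The 2 smooth muscle markers summed to 91689 to 154732 over the 9 libraries, the 3 of endothelium to 10870 to 16279, mir-451 and mir-144 of red blood cells to 459 to 1097, the 5 of white blood cells to 7042 to 14240 and the 2 of fibroblasts to 1476 to 2832. Of the 31 entries of these lists 0 passed limma's test between layers or hearts, where 0 of all 283 entries tested passed (0% called). Between hearts, edgeR and DESeq2 each called 3 of the 31 (mir-144, mir-145* and mir-208). Of all 283 entries edgeR called 9 there and DESeq2 11. Whether the make-up of the tissue had a part in the levels below was not tested.

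The family made up 2.29% to 3.91% of annotated reads, and mir-181a made up most of it. In every library mir-181a was the highest member, at 86.8% to 92.6% of the family's reads, and mir-181d was the lowest, at 0.733% to 1.33%. The joint mature entry of mir-181a ranked 6 of 577 rat entries by mean level and between 5 and 11 in single libraries, mir-181c ranked 52, mir-181b 57 and mir-181d 89. The numbers of reads of different miRNAs are each compared as filed. They are not corrected for how well a sequence is captured during library preparation.

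Summed over all its reads, mir-181a stood in epicardium at 31031, 21847 and 27323 RPMM in hearts 6, 7 and 8, in midmyocardium at 34258, 22202 and 19887, and in endocardium at 26587, 36252 and 25074. The layers overlapped, and the highest value was the endocardium of heart 7. Its mean over the 9 libraries was 27162 ± 5684 RPMM (SD, n = 9).

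For mir-181b the values in the same order were 1118, 966 and 1372 RPMM in epicardium, 1257, 1111 and 1058 in midmyocardium, and 1139, 1546 and 1213 in endocardium. Its layers overlapped too, and its highest library was again the endocardium of heart 7. Over the 9 libraries there were 18.8 to 27.8 mir-181a reads for each mir-181b read.

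The widest range was that of mir-181c, 2.30-fold from its lowest to its highest library and 1.60-fold to 1.82-fold for the other members. It stood at 2006, 1461 and 1255 RPMM in epicardium, 2366, 1383 and 1715 in midmyocardium, and 2045, 1031 and 1390 in endocardium. Its 3 libraries of heart 6 were above all 6 of the other hearts, with a mean of 2139 ± 198 RPMM, while those of hearts 7 and 8 were 1292 ± 229 and 1453 ± 236 (SD, n = 3). In the endocardium of heart 7, where mir-181a and mir-181b were highest, mir-181c was lowest, so that the number of mir-181a reads for each mir-181c read was 35.2 there and 11.6 to 21.8 in the other 8 libraries.

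The level of mir-181d was 252, 240 and 324 RPMM in epicardium, 405, 317 and 251 in midmyocardium, and 299, 312 and 372 in endocardium, with overlapping layers. In the order of mean levels, mir-181c (1628 ± 434 RPMM) and mir-181b (1198 ± 175; SD, n = 9) did not differ beyond their spread, since mir-181c was the higher in 7 of 9 libraries and the lower in the epicardium of heart 8 and the endocardium of heart 7. The other steps of the order held in 9 of 9 libraries.

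**Figure D1:**
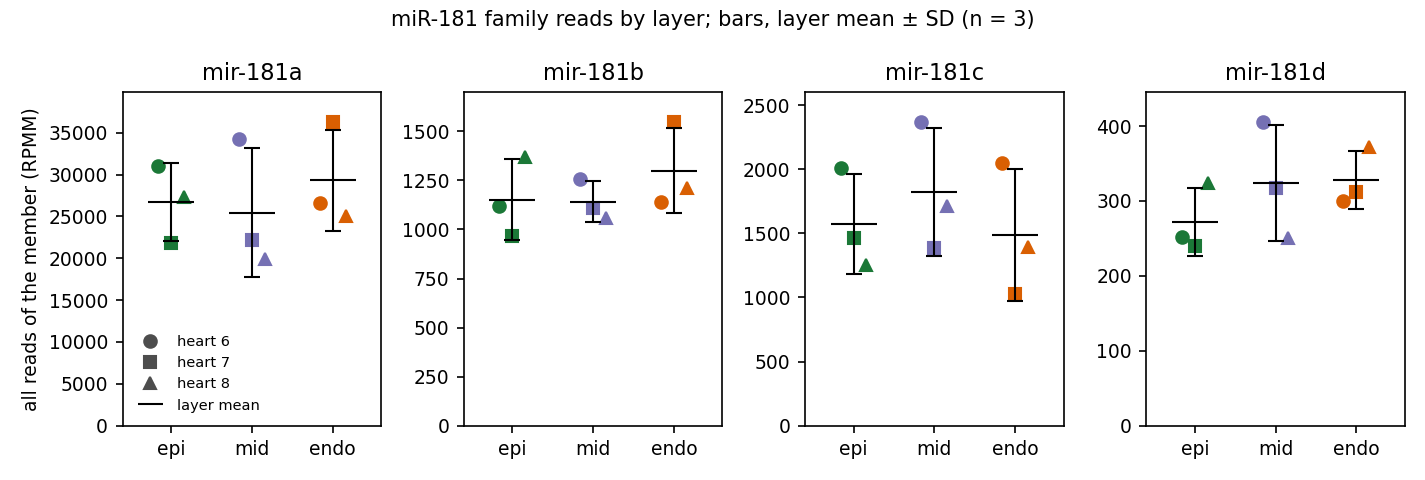
Reads of each miR-181 member in RPMM (vertical axes, from 0, a separate scale for each member) in epicardium (epi), midmyocardium (mid) and endocardium (endo); symbols mark the heart, horizontal bars the layer mean and error bars the SD (n = 3). The layers overlap for each member, and the 3 heart 6 libraries are the highest for mir-181c, at 2006 to 2366 RPMM.

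The first comparison asked whether a member's level differed between layers. No family entry passed. Among the 283 rat entries that reached 10 reads in a library, 0 had an adjusted p below 0.05 between endocardium and epicardium in limma (0% of entries called), and of the 14 family entries among them 0 did. At an unadjusted p below 0.05 there were 13 entries in all and 1 of the family. The same held for midmyocardium against epicardium (0% called, 13 entries and 0 of the family at an unadjusted p below 0.05) and for midmyocardium against endocardium (0% called, 8 and 0). edgeR and DESeq2, run on the recovered reads, called 0 entries in each of these comparisons. The smallest family p was that of mir-181a-2, an entry of 104 reads in all, most of them a longer form of the 3′ arm described below.

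For the joint mature entry of mir-181a the log2 fold change (of RPMM + 1) was 0.13 ± 0.29 (standard error) between endocardium and epicardium (limma adjusted p = 0.998), and -0.036 without the endocardium of heart 7. For mir-181b it was 0.19 ± 0.25 (limma adjusted p = 0.998), for mir-181c -0.093 ± 0.35 (limma adjusted p = 0.998), and 0.16 without that library, and for mir-181d 0.28 ± 0.26 (limma adjusted p = 0.998). The changes between midmyocardium and epicardium ran from -0.097 (mir-181a) to 0.25 (mir-181d), and those between midmyocardium and endocardium from -0.23 (mir-181a) to 0.33 (mir-181c). Over the 14 family entries the median change between endocardium and epicardium was -0.047 and over all 283 entries 0.043. With standard errors of 0.25 to 0.35 for the mature entries, differences of the size seen were not detectable with 3 libraries a layer.

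**Figure D2:**
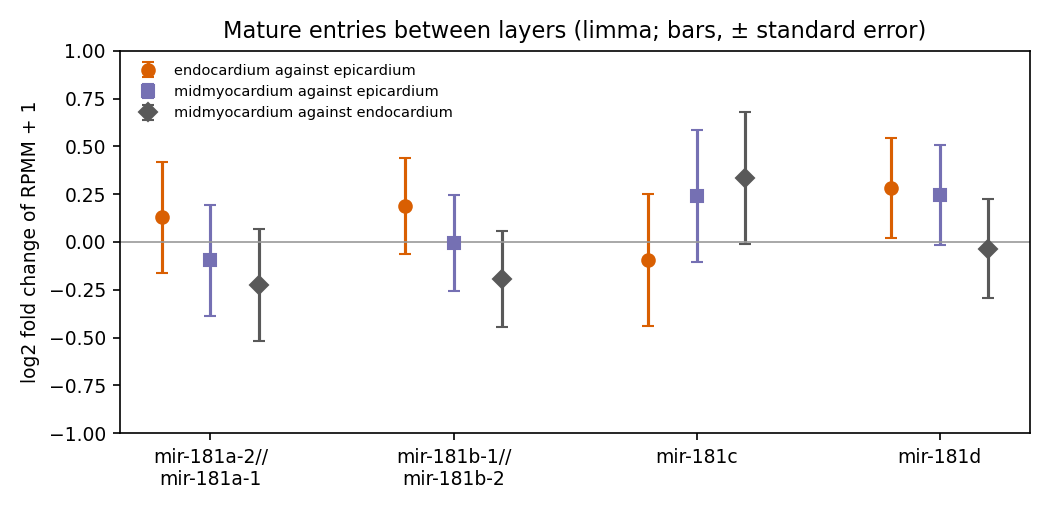
Log2 fold change of RPMM + 1 (vertical axis) of the 4 mature miR-181 entries in 3 comparisons of layers; error bars are standard errors from limma. All values lie between -0.23 and 0.33.

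The hearts could be compared with the layer held fixed, although the 3 libraries of a heart are parts of 1 animal, so that the test concerns these animals' libraries only. Of the 283 entries 0 had an adjusted p below 0.05 in limma's F test (0% called), and so had 0 of the 14 family entries, with 37 entries and 2 of the family at an unadjusted p below 0.05. edgeR called 9 of all entries and DESeq2 11, with 0 of the family in either. For mir-181c, whose heart 6 libraries stood above the rest, the limma adjusted p was 0.319. The other family entry under an unadjusted p of 0.05 was mir-181b-2*, which had only 40 reads in all.

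The entries outside the family whose level was most like that of mir-181a, by Pearson's correlation of log2(RPMM + 1) over the 9 libraries, were let-7b (r = 0.84), mir-3577 (0.77) and mir-378* (0.76), of 269 entries compared. In these, as in mir-181a, the highest library was the endocardium of heart 7. Within the family, r between the mature entries of mir-181a and mir-181b was 0.71, between mir-181a and mir-181d 0.47, and between mir-181a and mir-181c 0.014. These are descriptions over libraries that share 3 hearts and 3 layers.

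A large share of the family's reads differed from the published mature sequence at the 3′ end. For mir-181a, shorter forms prevailed. The exact mature sequence held 49.0% ± 1.9 (SD, n = 9) of its aligned mature-strand reads, 44.5% ± 2.4 ended short of it and 2.75% ± 0.50 ran past it. The most abundant sequences of mir-181a after the mature one show this. They are the forms 1 and 2 nts shorter, a form of full length ending in A, and the form 1 nt longer.

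mir-181a, 1 nt shorter: aACATTCAacgctgtcggtgag
mir-181a, 2 nts shorter: aACATTCAacgctgtcggtga
mir-181a, last nt A: aACATTCAacgctgtcggtgaga
mir-181a, 1 nt longer: aACATTCAacgctgtcggtgagtt

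These had mean levels of 8153, 2135, 534 and 470 RPMM, beside 13128 RPMM for the exact mature sequence. The mature sequence was the most abundant form of mir-181a in the pooled reads, with 100215 of 206379 reads of the joint entry.

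Longer forms were frequent in the other 3 members. For mir-181c the exact mature sequence held 54.6% ± 1.5 of aligned mature-strand reads, 27.6% ± 2.0 were longer and 14.8% ± 2.0 were shorter (SD, n = 9). For mir-181d these shares were 38.0% ± 4.3, 25.0% ± 4.4 and 28.5% ± 2.8, and for mir-181b 24.1% ± 1.4, 24.9% ± 2.7 and 43.7% ± 2.3. The share of longer reads was 2.02% to 3.69% in mir-181a and at least 17.4% in each library of the other members, so the ranges did not overlap. Of the longer mir-181c reads, 96.8% ± 1.2 continued along the RefSeq hairpin, compared with 70.4% ± 3.5 for mir-181b (against the Mir181b2 hairpin), 75.8% ± 5.0 for mir-181d and 87.9% ± 1.1 for mir-181a (against Mir181a2). The leading sequences other than the mature ones were as follows.

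mir-181c, 1 nt longer: aACATTCAacctgtcggtgagtt
mir-181c, 1 nt shorter: aACATTCAacctgtcggtgag
mir-181b, 1 nt shorter: aACATTCAttgctgtcggtggg
mir-181b, 1 nt longer: aACATTCAttgctgtcggtgggtt
mir-181d, 1 nt shorter: aACATTCAttgttgtcggtggg
mir-181d, 1 nt longer: aACATTCAttgttgtcggtgggtt

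Their mean levels were 348 and 142 RPMM for mir-181c, 305 and 149 RPMM for mir-181b, and 55.7 and 54.4 RPMM for mir-181d. In mir-181b the form 1 nt shorter had more reads than the mature sequence, 2418 against 2233, and was the higher in 5 of 9 libraries, so neither form was consistently the more abundant.

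**Figure D3:**
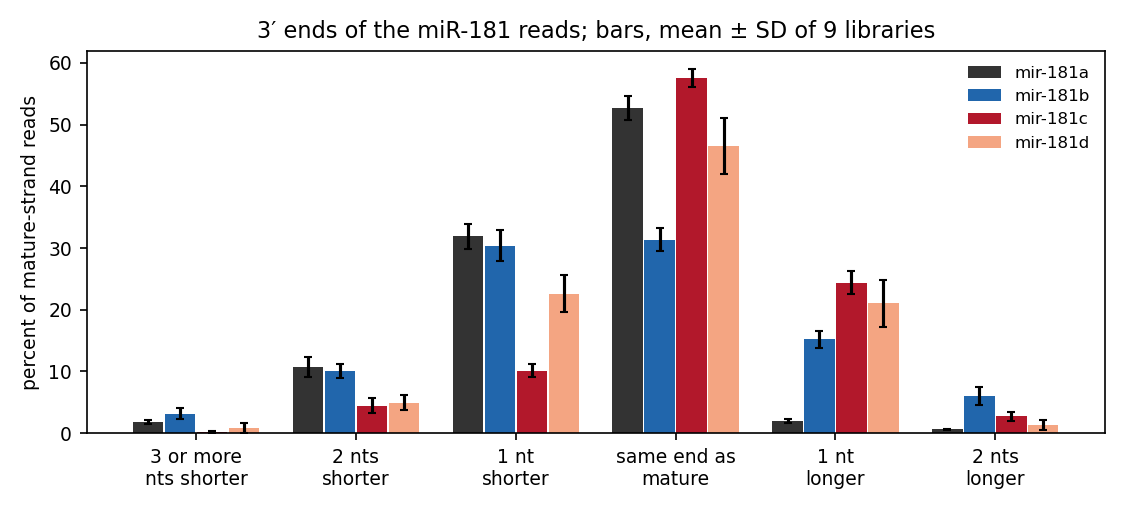
Where the 3′ ends of the miR-181 reads fell relative to the published mature sequence (horizontal axis), as percent of the mature-strand reads of each member (vertical axis, from 0); bars are means and error bars the SD of 9 libraries. Reads filed jointly under mir-181b and mir-181d count in mir-181b. Reads 1 nt longer than the mature sequence made up 1.95% of mir-181a reads and 24.4% of mir-181c reads.

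Reads of these members also differed in the last nt. A last nt that was A in place of the published base occurred in 14.8% ± 0.99 of the mir-181b reads with a full 5′ end and in 11.9% ± 2.5 of those of mir-181d, but in 2.73% ± 0.40 of those of mir-181a and 1.36% ± 0.41 of those of mir-181c (SD, n = 9). Part of this contrast is set by the published sequences, since position 21 is A in mir-181a and G in mir-181b and mir-181d. A read that ends there in A counts in mir-181b and mir-181d but not in mir-181a. The same holds for the matching A of mir-181c. In mir-181b the leading sequences of this kind were the following, at 52.9 and 48.2 RPMM, of which the first ends at position 21.

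mir-181b, 2 nts shorter, last nt A: aACATTCAttgctgtcggtga
mir-181b, last nt A: aACATTCAttgctgtcggtggga

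No difference in these shapes passed the test between layers or hearts. For each member the shares of exact mature, longer, shorter, 5′-changed and internally substituted reads and of * reads were compared, 24 shares in all. The 5′-changed share of mir-181a is set in 1 library by the reads without nts 1 and 2 described below, and nothing is read from its test. Between layers 0 passed an adjusted p of 0.05 in the exact permutation test, with a smallest adjusted p of 0.743, where the smallest unadjusted p possible was 0.00357. Between hearts, with heart labels permuted within layers, 0 passed, with a smallest adjusted p of 0.444. The smallest possible unadjusted p was 0.0278 there. Neither that nor the 0.00357 between layers could pass for a single share among 24. The tests therefore could not show a difference in 1 share alone.

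The share of * reads was highest in mir-181c. They made up 9.20% ± 2.3 of all mir-181c reads (5.54% to 13.1%), 0.952% ± 0.25 of those of mir-181a, 0.615% ± 0.41 of those of mir-181b and 0.246% ± 0.45 of those of mir-181d (SD, n = 9). The lowest library of mir-181c was above the highest of the other members, 1.40% in mir-181b. The * sequences are shown because their seeds differ between hairpins that share a mature sequence.

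mir-181a-1*: aCCATCGAccgttgattgtacc
mir-181c*: aCCATCGAccgttgagtggacc
mir-181a-2*: aCCACCAAccgttgactgt
mir-181a-2*, 3 nts longer: aCCACCAAccgttgactgtacc

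The seed CCATCGA was shared by mir-181a-1* and mir-181c* and by no other exact rat sequence read, and CCACCAA was that of mir-181a-2* alone. Since the * reads tell the mir-181a hairpins apart, they give a view of each. Of the 1964 * reads of mir-181a, 1074 came from mir-181a-2, which was 53.7% ± 4.0 of them over the libraries (48.4% to 59.8%). The level of mir-181a-2* was 127, 132 and 163 RPMM in epicardium of hearts 6, 7 and 8, 109, 101 and 144 in midmyocardium, and 195, 168 and 82.9 in endocardium. That of mir-181a-1* was 119, 94.7 and 138, then 116, 102 and 96.9, then 173, 127 and 78.9. In both the endocardium held the highest library (heart 6) and the lowest (heart 8).

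The level of mir-181c* was 187, 125 and 164 RPMM in epicardium, 179.6, 149 and 94.997 in midmyocardium, and 181.3, 120 and 103 in endocardium, with overlapping layers. For mir-181a-2*, the most abundant sequence was the 22-nt form printed above with 462 reads, and the 19-nt sequence of the entry ranked 5 with 39 reads. The entry of mir-181c* itself had 317 exact reads and 327 that ended in T in place of the last C (aCCATCGAccgttgagtggact), and the latter was the higher in 3 libraries, equal in 3 and the lower in 3. The * reads of mir-181b-1 (12), mir-181b-2 (40) and mir-181d (6) were too few to compare.

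**Figure D4:**
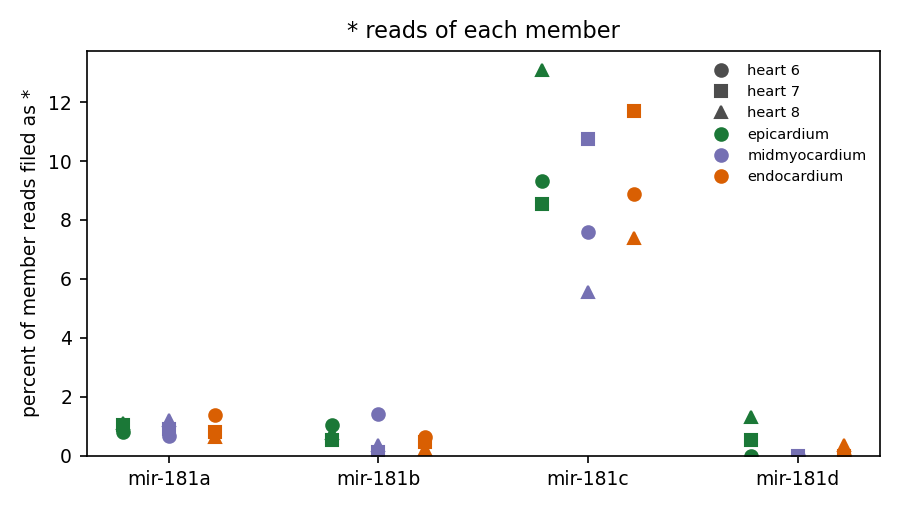
Percent of each member's reads that were filed as * (vertical axis, from 0) in each of the 9 libraries; colour marks the layer and symbol the heart. The values of mir-181c lie between 5.54% and 13.1%, and no value of another member is above 1.40%.

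Few reads of the mature arm were filed under 1 hairpin only. For mir-181b this filing rests on the last nts, and a nt added to a read of the other hairpin would not be told apart. The numbers that follow therefore do not separate the mir-181b hairpins. Forms of mir-181b longer than the mature sequence without mismatch and filed under 1 locus numbered 225 under mir-181b-2 and 2 under mir-181b-1. The leading one, aACATTCAttgctgtcggtgggttt, had 216 reads. The small entry mir-181a-2 (104 reads) consisted mostly of 3′-arm reads that ended beyond the * sequence (aCCACCAAccgttgactgtacct, 61 reads), and mir-181a-1 (120 reads) of a 3′-arm form ending short of it (aCCATCGAccgttgattgt, 69 reads). The levels of mir-181a-2 were 8.51, 7.79 and 11.8 RPMM in epicardium of hearts 6, 7 and 8, 21.1, 9.29 and 12.3 in midmyocardium, and 21.1, 18.9 and 14.5 in endocardium. All 3 endocardial values were above the 3 epicardial ones, which did not pass the test over all entries (log2 fold change 0.89 ± 0.32, limma adjusted p = 0.952; 0% of entries called).

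The 5′ end of the family was nearly fixed, with 1 exception. A read lacking nt 1 made up 0.121% to 0.385% of the aligned mature-strand reads of mir-181a. Reads with any change of the 5′ end had a mean share of 1.11% in mir-181b, 1.06% in mir-181c and 0.643% in mir-181d (n = 9). The highest share of mir-181c, 2.01%, was also in the endocardium of heart 7. Reads lacking nts 1 and 2 were 2136 of 51302 in the endocardium of heart 7, which is 4.16% (95% Wilson interval 3.99% to 4.34%) or 1496 RPMM. In the other 8 libraries there were 2 to 14 such reads each, 64 of 155114 in all, or 0.0207% to 0.0846%. The endocardium of hearts 6 and 8 had 5 and 6 of them, and the epicardium and midmyocardium of the same heart 7 had 9 and 14. The intervals, here and below, cover counting error only, because PCR copies were not marked and a read need not be a separate molecule. The leading sequences are shown with the moved seed in capitals.

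mir-181a without nts 1 and 2: cATTCAACgctgtcggtgagt
mir-181a without nts 1 and 2, 1 nt shorter: cATTCAACgctgtcggtgag
mir-181a without nts 1 and 2, 2 nts shorter: cATTCAACgctgtcggtga

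In the endocardium of heart 7 they had 1050, 713 and 239 reads, or 735, 499 and 167 RPMM. In the other 8 libraries together they had 32, 17 and 7 reads. The moved seed ATTCAAC was that of none of the 336 exact mature or * rat sequences read. Because they were known to stand apart in 1 library, these values are a description, and no test of them is used here.

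The reads lacking nts 1 and 2 had 3′ ends close to those of the others. In the endocardium of heart 7, 51.1% of them ended at the published 3′ end, 35.0% were 1 nt shorter and 11.9% were 2 nts shorter, while of the 48950 reads with a full 5′ end 51.8%, 31.8% and 12.2% did so. The form was spread over 50 sequences in that library, of which 9 were also read in another library. Reads with mismatches among the last nts were fewer in it, 2.20% against 6.75%.

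Reads with the same loss were fewer in the other members in that library. For mir-181c 13 of 1296 reads lacked nts 1 and 2 (1.00%, 95% Wilson interval 0.587% to 1.71%), against 3 of 9305 in the other 8 libraries together. For mir-181b there were 3 of 2198 reads, against 2 of 7066. For mir-181d there were 0 of 446 reads in that library. Its 95% Wilson interval reaches up to 0.854% and overlaps those of mir-181b and mir-181c, so a difference from them was not detectable at this depth. Over the 219 rat entries outside the family that have a published mature sequence, reads that began at nt 3 were 0.171% in the endocardium of heart 7 and 0.163% to 0.261% in the other libraries. Among the 52 entries with at least 1000 reads in that library, mir-181a had the highest ratio of its share there to that in the other 8 (101-fold, by a match of the first 14 nts), followed by mir-181c (31.1-fold) and mir-181b (4.69-fold), and the next entry was mir-27a (2.71-fold, on 4 reads). That library was also the deepest and had the lowest share of rat reads. Its marker sums were the lowest of the 9 for endothelium (10870 RPMM) and fibroblasts (1476), the next to lowest for heart muscle (61784) and the next to highest for smooth muscle (144182). Of the red blood cell markers its mir-486 was the highest, but its sum of mir-451 and mir-144 (602) was below the median of 773. Its white blood cell sum (10227) was also below the median, 10776.5. The part of any of these in this form was not tested.

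**Figure D5:**
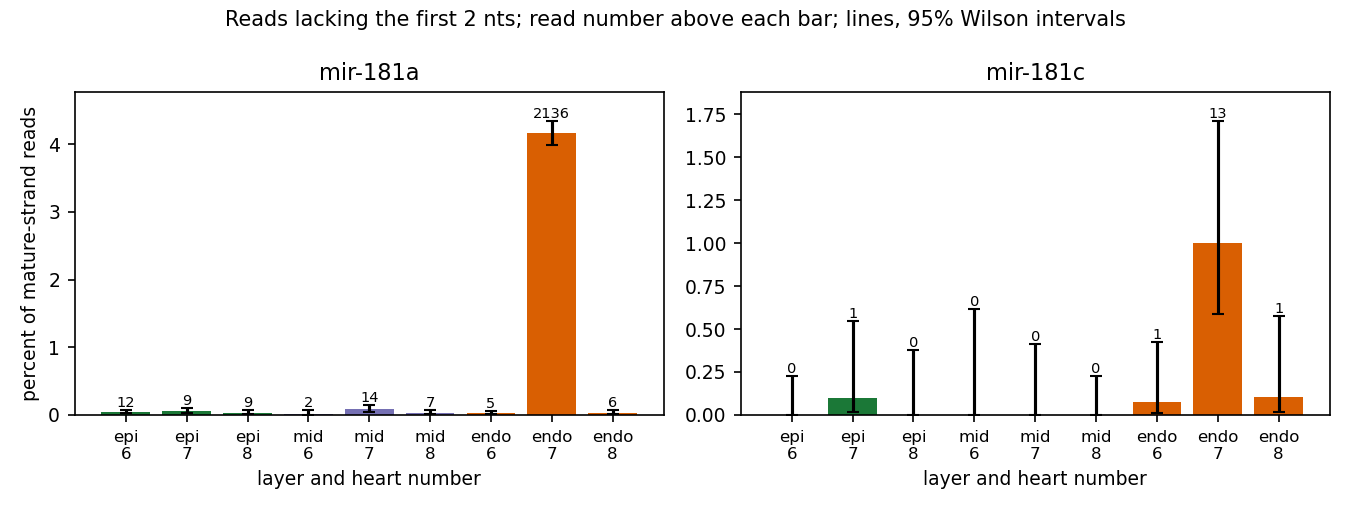
Percent of mature-strand reads of mir-181a (left) and mir-181c (right) that lacked nts 1 and 2 (vertical axes, from 0, with separate scales) in each library; numbers are reads and lines are 95% Wilson intervals. The endocardium of heart 7 had 2136 such mir-181a reads and 13 such mir-181c reads, and no other library more than 14 and 1.

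At the level of single sequences, 20 of the family had a mean of at least 100 RPMM in at least 1 layer (13 of mir-181a, 3 of mir-181b, 3 of mir-181c and 1 of mir-181d), among 491 rat sequences. Of these, 2 were forms of mir-181a without nts 1 and 2 (the full-length one and the one 1 nt shorter), which reached that mean only through the endocardium of heart 7, and nothing is read from their tests. Between endocardium and epicardium 0 of the 491 passed limma's test (0% called) and so did 0 of the other 18 family sequences, with 7 and 0 at an unadjusted p below 0.05. edgeR and DESeq2 called 0 as well. Between hearts 32 of the 491 passed (6.52% called; 0 to 33 with 1 library left out, 0 without the epicardium of heart 6), of which 0 were of the family, with 3 of the 18 at an unadjusted p below 0.05.

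The family sequence with the lowest p between hearts was a mir-181a form 2 nts shorter with G as its last nt, aACATTCAacgctgtcggtgg. Its level was 227, 153 and 82.6 RPMM in epicardium of hearts 6, 7 and 8, 151, 202 and 83.6 in midmyocardium, and 149, 501 and 71.0 in endocardium. Heart 8 was the lowest in each layer, with a mean of 79.1 RPMM against 176 and 285 in hearts 6 and 7. It did not pass in limma (adjusted p = 0.115), whereas DESeq2 called it (adjusted p = 0.0238). DESeq2 called 47 of all 491 sequences between hearts, and this was 1 of the 20 family sequences tested.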

How the data were processed

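Small RNA of 9 libraries (3 layers of 3 hearts, TruSeq Small RNA) was sequenced, and the authors annotated the reads in CLC Genomics Workbench against miRBase v18, rat first. The deposited table holds each annotated sequence in RPM (called RPMM), normalized by the authors to all annotated reads of the library. All values were whole multiples of 1 read within 0.01 (100% of values), so reads were recovered as counts. Unannotated sequences with at least 10 reads, deposited by the authors as raw counts, were searched for the family. A further table of grouped values was not used here.

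Entries were rebuilt by summing sequences by rat name, with * kept apart. Reads were aligned without gaps to the member's own mature sequence, with at most 3 mismatches over at least 12 nts, and 3′ changes within the last 3 nts were kept apart from internal ones. Levels were tested in limma 3.58.1 (R 4.3.3) on log2(RPMM + 1), with Benjamini-Hochberg adjustment over all 283 entries (at least 10 reads in a library) or 491 sequences (mean of at least 100 RPMM in a layer). Shares were tested by exact two-sided permutation of an F statistic over the 9 libraries. The scripts were tested on simulated data. edgeR 4.0.16 and DESeq2 1.42.0 on the recovered reads, other pseudocounts (0.1 and 10), filters and totals, each library left out, and the heart as replicate block were the alternatives.

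Same-numbered libraries came from the same animal, which makes the hearts pairs. The correlation of their deviations from the layer means over the 283 entries ran from -0.23 to 0.35 in the 9 pairs (median 0.11). In the 18 pairs of different hearts it ran from -0.35 to 0.36 (median -0.12). Each layer has 3 animals, so p-values concern these.

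Named were the 4 members and their rat entries, for each the exact mature and the most abundant other sequences, each family sequence called in a fit, the 5′-shortened mir-181a sequences, and the 3 entries most correlated with mir-181a. Single sequences named for a low p or for 1 locus were chosen after their values were seen. Members, marker lists and tests were chosen with earlier results of these data known. Loci and hairpins are from RefSeq, where 6 genes of the family matched by sequence or symbol. Hairpins of Mir181a-1 and Mir181b1 were not analysed here.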

Additional observations from a re-analysis of the deposited data

Results flagged for a closer look

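The files of unannotated sequences, which enter no comparison above, were searched for 12 nts in a row of a miR-181 sequence. Of 13317 sequences, 3 held such a run, with 220 reads in all, and were flagged as signal outside the main measurement. A 20-nt sequence that shares its first 18 nts with mir-181a and ends in AA (aacattcaacgctgtcggaa) had 130 reads, between 7 and 31 in each of the 9 libraries. A 30-nt sequence that runs past the mature end (aacattcaacgctgtcggtgagttggaatt) had 50 reads, 23 of them in the endocardium of heart 7 and 0 in that of heart 8. A 29-nt sequence, 1 nt shorter at the 3′ end, had 40 reads, 14 of them in the endocardium of heart 7. The last 2 were above the floor of 3 reads in 4 libraries each. Tests for single libraries far from the rest of their group were not made, since each group has 3 samples.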

How the results depend on the processing

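Of 132 recomputed counts of family features past the threshold (entries, sequences and shares, between layers and between hearts), 131 were 0, as in the values reported, and 0 was the count with any 1 library left out. The exception was 1 sequence that DESeq2 called between hearts. With the heart number as a replicate block, 0 entries, 0 sequences and 0 shares of the family passed between layers, and the paired fit changed no call. A single share could not pass in that block, where the smallest unadjusted p possible in the exact permutation test was 0.0278. Over all features the counts between hearts moved more. For entries, 0 of 283 in limma became 9 in edgeR, 11 in DESeq2 and 6 with a pseudocount of 10, each of 283. It was 3 of the 156 entries tested on exact mature sequences only. Without 1 library it was up to 3 (of 280, without the midmyocardium of heart 8). For sequences, 32 of 491 became 62 of 1937 at a minimum mean of 10 RPMM, a lower share of those tested, and 47 of 491 in DESeq2. With 1 library left out it was 9 of 489 (endocardium of heart 6), 17 of 491 (midmyocardium of heart 7) and 14 of 494 (epicardium of heart 8). Without the epicardium of heart 6 it was 0 of 495. The cause was not tested. Without the endocardium of heart 7, 1 of 279 entries passed between endocardium and epicardium, and 0 of the family.

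Of 228 recomputed log2 fold changes of the 4 mature entries between layers, 217 kept their sign and 11 did not, none of them past the threshold. Of the 11, 10 came from leaving out 1 library and 1 from exact mature sequences only (mir-181d between midmyocardium and endocardium, 0.049). Between endocardium and epicardium the values with 1 library left out ran from -0.036 (without the endocardium of heart 7) to 0.24 for mir-181a, below 0 also without the epicardium of heart 7 (-0.010), and from -0.35 to 0.16 (again without the endocardium of heart 7) for mir-181c, above 0 also without the epicardium of heart 6 (0.10). Between midmyocardium and epicardium they ran from -0.33 to 0.063 for mir-181a and from -0.13 to 0.15 for mir-181b, and between midmyocardium and endocardium from -0.21 to 0.14 for mir-181d. The cause was not tested. The share of mir-181a reads without nts 1 and 2 in the endocardium of heart 7 was 4.16% with reads that match another member left out and stayed within its interval with sequences under 10 reads left out. It stayed so too with the first 14 nts matched, an alternative chosen after seeing the data. Depth limits the low entries most, since 3 reads were 10.6 RPMM in the midmyocardium of heart 6.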
